A study of Mus musculus with 12 samples.

Results

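The comparison set the average of 3 compound groups, each with equal weight, against control, and its subject was the genes whose 3 compound groups all lay on the same side of control. Of 17340 genes with counts, 8498 (49.0%) met that rule, 4135 of them higher and 4363 lower in every compound group, and 8842 lay on mixed sides. Nothing is read from that share, since the 3 comparisons use the same control libraries and genes without a change can also lie on 1 side in all of them. KPC cells, a mouse pancreatic cancer line labelled C57BL/6, were kept for 48 h in 1 µM of JQ1 or I-BET151, which inhibit BET bromodomain proteins, in 1 µM of the histone deacetylase inhibitor ITF2357 (givinostat), or as controls. All groups grew in the same serum-containing medium, and each had 3 libraries, 12 in all, read by RNA-seq. The labels call the control both untreated and PBS, and name no solvent of the compounds. Nor do they tell whether a group's libraries were separate cultures, and p-values therefore measure the spread between libraries, which may be technical.

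BET proteins bind acetylated lysines on histones through their bromodomains and help RNA polymerase II to leave promoters. Histone deacetylases take the acetyl groups off, so their inhibitors raise acetylation, while BET inhibitors block its reading. Both kinds of compound are known to change the expression of many genes in cancer cells.

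Library totals ranged between 21 and 31.2 M counts. Levels are given in counts per M library counts (CPM), scaled with TMM factors and not divided by gene length, so they compare a gene between libraries and not genes with each other. Such scaling is relative and does not show a change in the total RNA of a cell, and fewer cells of a type cannot be told apart from less RNA per cell. Malat1 took 7.11% to 7.33% of the counts in I-BET151 libraries, whereas the top gene of all other libraries, Gm26917, took 2.93% to 3.67%. All 10 ductal epithelial markers were measured, with a summed level of 4969 to 5023 CPM in control libraries. Of the fibroblast, endothelial and acinar markers 3 of 9, 3 of 8 and 2 of 12 were measured, with summed levels of 21.9 to 22.8, 4.16 to 5.05 and 4.16 to 4.9 CPM in control. The fibroblast, endothelial and acinar sums were lowest with I-BET151, at 6.75 to 7.72, 0.929 to 1.16 and 0.552 to 1.5 CPM. The 3 measured of 13 macrophage and leukocyte markers summed to 48.2 to 49.5 CPM in control, 62.4 to 67 in JQ1, 56.9 to 62.6 in I-BET151 and 102 to 105 in ITF2357 libraries. Cd14 alone made most of these sums, with group means of 41.4, 57, 53.4 and 98.8 CPM in that order. The median log2 fold change of the average over the 3 markers was -0.23.

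The average of the compounds differed from control in 8942 genes, which is 51.6% of those tested (24.7% higher and 26.8% lower; edgeR quasi-likelihood test, Benjamini-Hochberg adjusted p under 0.05). In 2544 of these genes the compounds lay on mixed sides, so the average alone does not show a shared change. A stricter test gave each gene the largest of its 3 p-values against control where the 3 signs were the same, and adjusted these over all genes. This same-side test called 1931 genes (11.1%), 966 higher and 965 lower, each direction 5.57% of the genes tested. They are called shared genes here, and "rose" and "fell" are used of them only. Counts from the lists below are to be read against these shares, and against 14.4% of protein-coding genes. The 3 comparisons share the control libraries, so each compound's own value is given side by side. In 1904 of the 1931 genes all 9 compound libraries lay beyond all 3 control libraries, which held for 18.1% of all genes. The 1931 were called for their distance from these same control libraries, so this is no separate support for them. With library totals in place of TMM factors the same-side test called 795 higher and 1155 lower, and the average 3363 and 5846. With the 9 compound libraries taken as 1 group the average was called in 815 genes.

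Most shared changes were small in at least 1 compound. The change reached 1.5-fold in every compound in 81 of the genes that rose and 99 of those that fell, and 2-fold in 8 and 21. Of the genes changed 2-fold in every compound, only Pamr1 and Avil had both a mean log2 CPM of 2 or more and no overlap with control. The smallest of the 3 changes was that of JQ1 in 1559 of the 1931 genes, of ITF2357 in 268 and of I-BET151 in 104. Over all genes JQ1 also had the fewest calls against control, 24.8%, with 63.1% for I-BET151 and 54% for ITF2357 (edgeR, adjusted p under 0.05). The order is therefore not read as particular to the shared genes or to a list. The size differed among the compounds in 1768 of the shared genes (91.6%; edgeR F test, adjusted p under 0.05), against 74.2% of all genes. The median log2 fold change of the shared rises was 0.24 (JQ1), 0.70 (I-BET151) and 0.49 (ITF2357), and that of the shared falls was -0.26, -0.65 and -0.49. Over all genes the medians were 0.00, -0.03 and -0.01. At the edge of the call, Kcnd1 lay just inside with an edgeR adjusted p of 0.04996 and Dennd2d just outside with 0.0501.

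**Figure D1:**
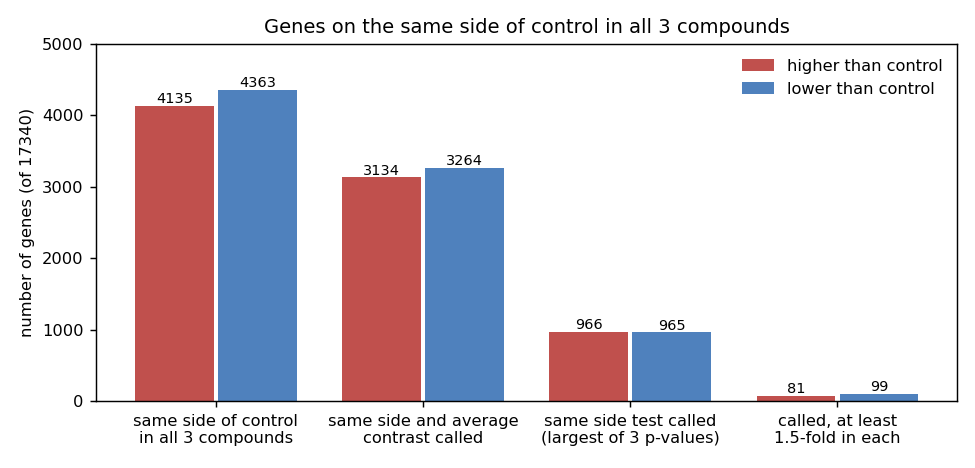
Number of genes (vertical axis) higher or lower than control at 4 steps of strictness, from the same side in all 3 compounds to called and changed at least 1.5-fold in each. The last step holds 81 genes that were higher and 99 that were lower.

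Genes for amino acid supply fell together. ATF4 is the transcription factor with which cells answer amino acid shortage and protein folding stress, and its known targets make and import amino acids. Of 37 measured genes of the ATF4 stress response list 31 fell and 0 rose, and the median log2 fold change of the average was -1.26, against -0.02 over all genes. The list's medians were -0.51 in JQ1, -1.93 in I-BET151 and -1.51 in ITF2357. In 30 of the 31 all compound libraries lay below all control libraries, and Cebpb, a transcription factor that pairs with ATF4, was the exception. Such a lack of overlap held for 98.6% of all shared genes and is not particular to this list.

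Windows upstream of 6 genes that fell are shown because each holds TGATGNAA, letters of the kind that dimers of ATF4 and C/EBP proteins are known to bind. The motif was searched on both strands, so that it can also read TTNCATCA. The sequences are from RefSeq (build GRCm38.p6), 5′ to 3′ on the strand of the gene, and capitals mark 1 match in each. They lie at chr3:50443627-50443686 (minus strand, Slc7a11), chr6:7693210-7693258 (minus, Asns), chr14:55540137-55540196 (plus, Pck2), chr2:119351023-119351082 (plus, Chac1), chr11:120643818-120643877 (minus, Pycr1) and chr19:27216794-27216853 (plus, Vldlr).
Slc7a11: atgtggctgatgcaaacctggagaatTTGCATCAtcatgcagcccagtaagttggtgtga
Asns: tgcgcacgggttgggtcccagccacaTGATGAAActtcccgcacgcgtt
Pck2: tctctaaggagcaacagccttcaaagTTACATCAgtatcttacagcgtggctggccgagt
Chac1: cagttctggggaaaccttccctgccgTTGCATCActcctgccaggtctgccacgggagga
Pycr1: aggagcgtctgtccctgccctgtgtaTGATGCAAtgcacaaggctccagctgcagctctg
Vldlr: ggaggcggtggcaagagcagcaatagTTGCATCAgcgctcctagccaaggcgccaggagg
Counted from the annotated start site, the match began at base -47, -23, -103, -193, -103 and -200 in these genes, in the same order. Of the list's genes with a window 8 of 32 held the motif, 6 of the 27 that fell and 2 of the 5 others. The share over all genes with a window was 2.42%. A match describes the letters and does not show that a factor binds there.

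Slc7a11, the cystine importer of the cell membrane (chr3:49892526-50443614, mm10, coordinates of GENCODE M21), measured 284, 286 and 290.5 CPM in the control libraries, 182, 168 and 175 in JQ1, 7.09, 6.04 and 6.53 in I-BET151 and 25.6, 29.1 and 22.7 in ITF2357 libraries. Every compound library lay below every control library, the I-BET151 libraries lowest and the JQ1 libraries nearest to control. The average change was -3.22 ± 0.04 (SE) on the log2 scale, with -0.71 in JQ1, -5.46 in I-BET151 and -3.48 in ITF2357 (edgeR, same-side adjusted p = 1.45e-15).

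Cth makes cysteine from cystathionine (chr3:157894248-157925077). It measured 87.4, 89.4 and 91.1 CPM in the control libraries, 50.3, 48.1 and 46.3 in JQ1, 2.14, 2.87 and 1.88 in I-BET151 and 5.33, 4.29 and 5.18 in ITF2357 libraries. The groups did not overlap, and the compounds stood in the same order as for Slc7a11. Cth changed on average by -3.44 ± 0.05 (SE) on the log2 scale, with -0.89 in JQ1, -5.27 in I-BET151 and -4.16 in ITF2357 (edgeR, same-side adjusted p = 1.2e-14).

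Aldh1l2 is a mitochondrial enzyme of folate metabolism (chr10:83487450-83534140). Its level measured 92.1, 90.4 and 90.2 CPM in the control libraries, 45.5, 44.3 and 49.4 in JQ1, 3.93, 3.55 and 3.59 in I-BET151 and 5.26, 4.41 and 4.26 in ITF2357 libraries. The I-BET151 and ITF2357 libraries were far below control and the JQ1 libraries stood between. The average change was -3.29 ± 0.05 (SE) on the log2 scale, with -0.97 in JQ1, -4.62 in I-BET151 and -4.28 in ITF2357 (edgeR, same-side adjusted p = 5.53e-16). Its span overlaps D10Wsu102e on the opposite strand, and strand use in the counting is not stated, so reads of such pairs cannot be told apart. Other genes named below also overlap a gene on the opposite strand, and not every such pair is listed.

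Trib3, a pseudokinase known as a target of ATF4 (chr2:152337422-152344032), measured 96.9, 94 and 95.4 CPM in the control libraries, 50.2, 50.6 and 48.9 in JQ1, 3.11, 4.26 and 2.99 in I-BET151 and 5.45, 7.47 and 7.66 in ITF2357 libraries. No compound library reached the control range. Trib3 changed on average by -3.17 ± 0.05 (SE) on the log2 scale, with -0.94 in JQ1, -4.78 in I-BET151 and -3.81 in ITF2357 (edgeR, same-side adjusted p = 1.99e-14). Trib3, Cth and Aldh1l2 were also among the 10 largest shared falls, ranked by the smallest of the 3 changes, of genes without overlap with control whose mean log2 CPM was 2 or more.

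Atf4 itself fell from a mean of 364 CPM in control to 283 in JQ1, 159 in I-BET151 and 167 in ITF2357 groups. Phgdh, the first enzyme of serine synthesis, went from 302 CPM to 204, 70.2 and 139.7 in that order of compounds. Mthfd2, a mitochondrial folate enzyme, went from 96.8 CPM to 61.2, 8.57 and 24.1. Slc7a11, Cth, Trib3, Phgdh and Mthfd2 were all lowest with I-BET151. Ddit3, a stress transcription factor also called CHOP, had another order, with 28.2 CPM in control and 14.1, 16 and 4.78 in the compounds. The 6 measured members without a shared call were Atf3, Ddit4, Nupr1, Cbs, Slc7a3 and Gdf15.

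**Figure D2:**
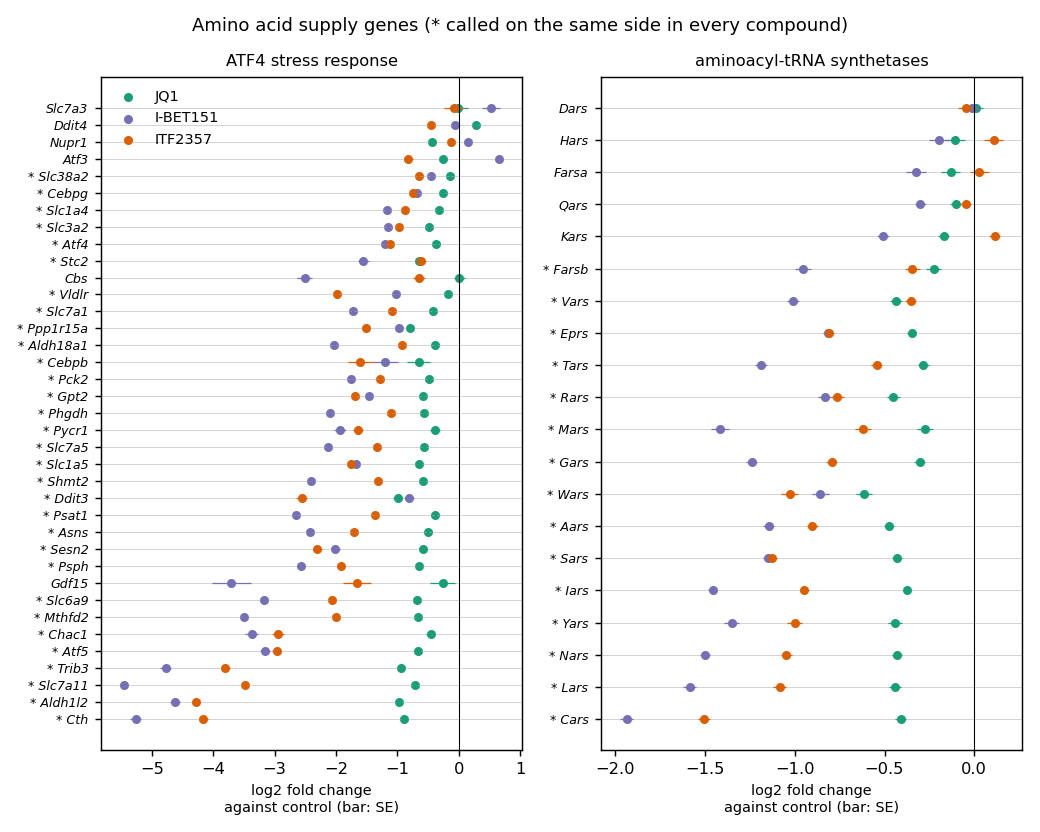
Log2 fold change against control (horizontal axis, bars are SE of the fit) of genes of amino acid supply and tRNA loading in each compound, 1 row per gene, with shared genes starred. Of the 37 ATF4 list genes 31 carry a star, and for 29 of the 31 JQ1 lies nearest to 0. JQ1 also had the smallest change in 1559 of all 1931 shared genes.

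Aminoacyl-tRNA synthetases load amino acids onto tRNAs. Of 20 measured, 15 fell and 0 rose, with a median average change of -0.73 and medians of -0.36, -1.08 and -0.78 in JQ1, I-BET151 and ITF2357. Wars, the enzyme for tryptophan, measured 109.7, 122 and 120.0 CPM in the control libraries, 73.9, 75.7 and 80.4 in JQ1, 65.6, 64.6 and 63.8 in I-BET151 and 58, 52.4 and 61.4 in ITF2357 libraries. The groups did not overlap, and its average change was -0.83 ± 0.04 (SE) on the log2 scale, with -0.61 in JQ1, -0.86 in I-BET151 and -1.03 in ITF2357 (edgeR, same-side adjusted p = 1.81e-12). Aars and Rars, for alanine and arginine, fell by 0.84 and 0.68 on the log2 scale on average. Dars, Farsa, Hars, Kars and Qars had no shared call, with average changes between -0.19 and -0.02.

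Genes that build ribosomes fell by smaller median changes. Of 42 genes of the MYC and ribosome biogenesis list 21 fell and 0 rose, with a median average change of -0.45 and medians of -0.26, -0.88 and -0.16 in JQ1, I-BET151 and ITF2357. Without ITF2357 the count that fell was 32. Myc, the transcription factor that drives growth and ribosome production (chr15:61985391-61990374), measured 383, 396 and 399 CPM in the control libraries, 312, 319.5 and 315 in JQ1, 132, 138 and 129 in I-BET151 and 238, 240.0 and 238 in ITF2357 libraries. All compound libraries lay below control, I-BET151 lowest. Its average change was -0.87 ± 0.02 (SE) on the log2 scale, with -0.32 in JQ1, -1.56 in I-BET151 and -0.72 in ITF2357 (edgeR, same-side adjusted p = 1.88e-11). Rrp9, which processes ribosomal RNA, measured 19.7, 20.5 and 18.4 CPM in the control libraries, 12, 12.8 and 14.3 in JQ1, 7.57, 8.57 and 8.18 in I-BET151 and 12.5, 13.7 and 14.9 in ITF2357 libraries. The compound libraries again lay below control, and the average change was -0.78 ± 0.07. Rrp9 overlaps Parp3 on the opposite strand. Nop14 and Rrs1, ribosome assembly factors, fell by 0.69 and 0.60 on the log2 scale.

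The genes with the largest shared rises came from several functions. They were ranked by the smallest of their 3 changes among shared genes without overlap with control whose mean log2 CPM was 2 or more. Lack of overlap was thus a condition of entry, here and for the largest falls, and is no result. Pamr1, a secreted peptidase-like protein (chr2:102550012-102643041), measured 1.29, 1.46 and 1.9 CPM in the control libraries, 3.34, 4.12 and 3.53 in JQ1, 11.5, 11.9 and 11.6 in I-BET151 and 5.2, 5.3 and 4.85 in ITF2357 libraries. Its levels were low but above control in all 9 compound libraries. Pamr1 changed on average by 1.96 ± 0.14 (SE) on the log2 scale, with 1.23 in JQ1, 2.92 in I-BET151 and 1.72 in ITF2357 (edgeR, same-side adjusted p = 1.19e-06).

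Cebpd, a C/EBP transcription factor (chr16:15887286-15891031), measured 9.6, 9.01 and 10.6 CPM in the control libraries, 18.8, 17.1 and 18.3 in JQ1, 54.3, 48.9 and 53.7 in I-BET151 and 26.1, 25.5 and 22 in ITF2357 libraries. I-BET151 libraries were highest and JQ1 libraries lowest among the compounds, with no overlap with control. The average change was 1.55 ± 0.07 (SE) on the log2 scale, with 0.89 in JQ1, 2.42 in I-BET151 and 1.33 in ITF2357 (edgeR, same-side adjusted p = 4.44e-10). Its span overlaps Spidr on the opposite strand.

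Zfp36 encodes a protein that speeds the decay of mRNAs with AU-rich elements (chr7:28376784-28380253). Its level measured 25.8, 24.7 and 25 CPM in the control libraries, 47.6, 48 and 49.2 in JQ1, 118, 111 and 116 in I-BET151 and 48.3, 43.8 and 44.7 in ITF2357 libraries. JQ1 and ITF2357 libraries lay close together and I-BET151 libraries well above them. The average change was 1.33 ± 0.04 (SE) on the log2 scale, with 0.94 in JQ1, 2.19 in I-BET151 and 0.86 in ITF2357 (edgeR, same-side adjusted p = 7.44e-15).

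Ddit4l, an inhibitor of mTOR signalling, measured 6.77, 8.08 and 8.72 CPM in the control libraries, 14.6, 14.6 and 17.1 in JQ1, 19.4, 15.8 and 18 in I-BET151 and 19, 17.9 and 19.1 in ITF2357 libraries. Here the 3 compounds came close to each other, with changes of 0.97, 1.17 and 1.25 in JQ1, I-BET151 and ITF2357. Sptssb, a subunit of the enzyme that begins sphingolipid synthesis, measured 4.16, 3.89 and 4.32 CPM in the control libraries, 7.05, 7.03 and 7.48 in JQ1, 27.1, 28.6 and 31.6 in I-BET151 and 21.5, 25.6 and 23.8 in ITF2357 libraries. In Sptssb the JQ1 libraries stayed nearest to control, and the changes were 0.80, 2.82 and 2.51. Tppp, Cys1, Tspan13, Chsy3 and the processed pseudogene Gm12481 complete the 10, with average changes from 0.89 to 1.84.

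Among the 10 largest falls, Avil, an actin-binding protein of the villin family (chr10:127000709-127020994), measured 37.5, 39.5 and 41.5 CPM in the control libraries, 16.8, 21.3 and 17.8 in JQ1, 5.24, 4.77 and 5.93 in I-BET151 and 5.58, 5.39 and 6.87 in ITF2357 libraries. Its average change was -2.24 ± 0.07 (SE) on the log2 scale, with -1.10 in JQ1, -2.90 in I-BET151 and -2.72 in ITF2357 (edgeR, same-side adjusted p = 1.77e-12). Avil overlaps Tsfm on the opposite strand. Soat2, which esterifies cholesterol, measured 45, 42.2 and 42.9 CPM in the control libraries, 22.3, 23 and 23.1 in JQ1, 4.51, 4.35 and 3.91 in I-BET151 and 4.98, 5.9 and 5.35 in ITF2357 libraries. Its changes were -0.93, -3.35 and -3.01 in JQ1, I-BET151 and ITF2357. Acot2, Recql4, Ciart, D330041H03Rik and Wnt7a complete the list beside the 3 ATF4 list genes, with average changes from -2.30 to -1.21. Recql4 is a DNA helicase, Ciart a repressor in the circadian clock and Wnt7a a secreted ligand of the Wnt pathway. Recql4 and D330041H03Rik overlap Mfsd3 and Abca3, respectively, on the opposite strand.

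**Figure D3:**
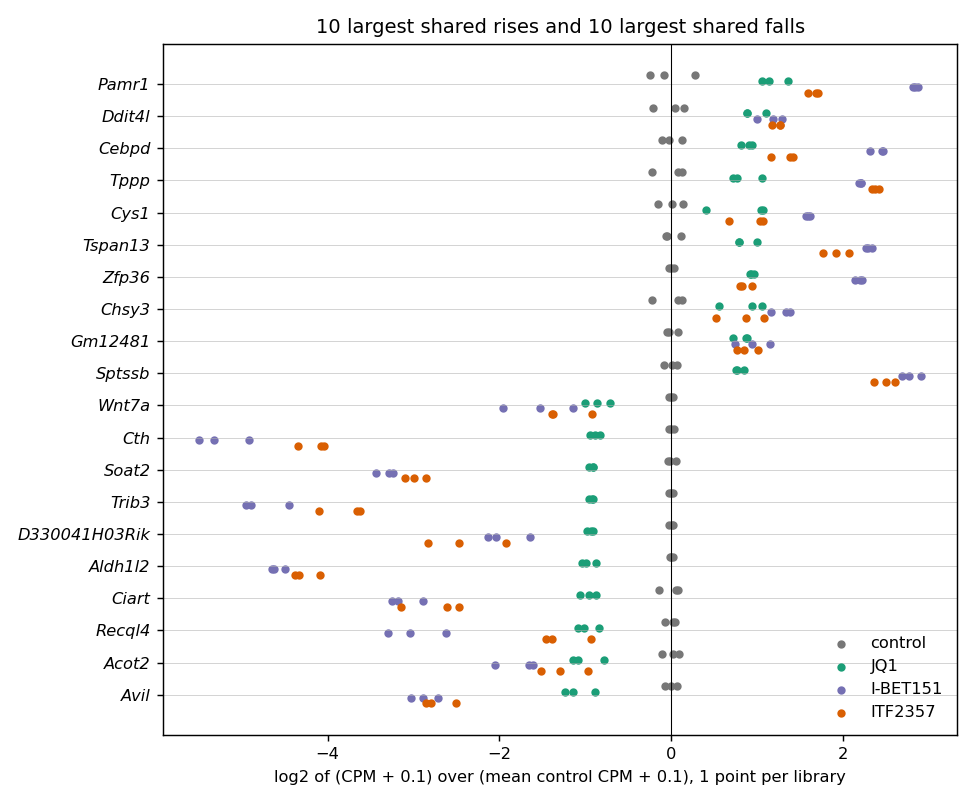
Log2 of the CPM plus 0.1 over the mean control CPM plus 0.1 (horizontal axis) for the 10 largest shared rises and the 10 largest shared falls of genes without overlap with control and with a mean log2 CPM of 2 or more, 1 point per library. In each of these genes all 9 compound libraries lie on 1 side of the 3 control libraries, as the choice of genes required.

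Immediate early and growth signalling genes moved in both directions. Of 31 measured genes of RAS-MAPK output 3 rose and 6 fell (29% shared, against 11.1% of all genes and 14.4% of protein-coding genes). Dusp1, a phosphatase that switches off MAP kinases, measured 40, 38.7 and 40.2 CPM in the control libraries, 64, 67 and 66.2 in JQ1, 98.4, 93.5 and 93.6 in I-BET151 and 67.9, 69.9 and 65.9 in ITF2357 libraries. It was above control in every compound library, with changes of 0.73, 1.26 and 0.77 in JQ1, I-BET151 and ITF2357. Its span overlaps Ergic1 on the opposite strand. Fos and Jun, parts of the AP-1 transcription factor, rose by 1.17 and 0.85 on average. Fosl1, another AP-1 part, measured 102, 104 and 109 CPM in the control libraries, 76.3, 81.4 and 72.4 in JQ1, 8.98, 8.7 and 9.84 in I-BET151 and 48.5, 48.2 and 50.2 in ITF2357 libraries. Its libraries lay below control in every compound, and the changes were -0.46, -3.52 and -1.10. Fosl1 overlaps Ccdc85b on the opposite strand. The EGF receptor ligands Areg and Ereg fell by 1.97 and 1.21 on average. Dusp5, Spry4 and Etv5, known to be induced by ERK signalling, fell by 1.22, 1.00 and 0.62.

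Of 23 genes of CDK inhibitors and p53 targets, 4 rose and 1 fell (21.7% shared, against 11.1% of all genes and 14.4% of protein-coding genes). Btg2, an antiproliferative gene that p53 induces (chr1:134075170-134079120), measured 26.8, 29.2 and 28.6 CPM in the control libraries, 57, 55.5 and 56.2 in JQ1, 138, 139 and 141 in I-BET151 and 42.3, 42.8 and 45.3 in ITF2357 libraries. The groups did not overlap, and its average change was 1.31 ± 0.04 (SE) on the log2 scale, with 1.00 in JQ1, 2.31 in I-BET151 and 0.63 in ITF2357 (edgeR, same-side adjusted p = 2.05e-12). Cdkn1b, an inhibitor of cyclin-dependent kinases, rose by 0.37 on average, and Gadd45a, a stress sensor gene, fell by 0.91. Cdkn1a, the p21 inhibitor, had no shared call, with changes of -0.23, -0.51 and -1.02 and an edgeR same-side adjusted p of 0.168, which does not show that it was unaltered. Its average was called lower (-0.59, edgeR adjusted p = 1.03e-07), and every compound library lay below every control library.

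Of 22 measured genes of the epithelial list 8 rose and 0 fell (without JQ1, 12 and 1), while 2 lay below control in every compound group without a shared call. The average contrast called 13 of the 22 higher and 3 lower, 2 of these 3 on mixed sides. The median average change of the 22 genes was 0.42. Cdh1, E-cadherin (chr8:106603351-106670246), measured 772, 789 and 780.4 CPM in the control libraries, 948, 942 and 939 in JQ1, 1492, 1492 and 1512 in I-BET151 and 1443, 1393 and 1457 in ITF2357 libraries. Every compound library lay above control, JQ1 lowest. Its average change was 0.70 ± 0.02 (SE) on the log2 scale, with 0.27 in JQ1, 0.94 in I-BET151 and 0.87 in ITF2357 (edgeR, same-side adjusted p = 3.15e-12). Ocln, a tight junction protein, measured 7.4, 8.57 and 7.56 CPM in the control libraries, 10.7, 10.9 and 9.69 in JQ1, 18.2, 19.8 and 20.7 in I-BET151 and 16.2, 15.1 and 16.1 in ITF2357 libraries. Its changes were 0.41, 1.32 and 1.02, and Krt19, a keratin of ductal cells, had 0.20, 1.04 and 0.91. The 10 ductal markers, of which 5 rose and 0 fell, summed to 4969 to 5023 CPM in control libraries and to 5618 to 5952 CPM in compound libraries, and their part in these results was not tested.

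Of 11 measured mucin and trefoil genes 4 rose and 0 fell. Muc1, a membrane mucin, measured 69.5, 71.1 and 70.3 CPM in the control libraries, 77.5, 85 and 82.7 in JQ1, 781, 742 and 742 in I-BET151 and 193, 197 and 206 in ITF2357 libraries. The JQ1 libraries lay just above control and the I-BET151 libraries far above it, with changes of 0.22, 3.43 and 1.5. Muc4 and Muc5b had average changes of 1.56 ± 0.09 and 1.04 ± 0.07. The call of Clca3a2 did not hold without control 1, control 2 or JQ1 1, where the edgeR adjusted p was 0.0664, 0.125 and 0.141, with a range of 0.000732 to 0.141 over all alternatives.

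Of 21 measured mesenchymal genes 3 rose and 5 fell (38.1% shared, against 11.1% of all genes and 14.4% of protein-coding genes). Hmga2, a chromatin protein of fetal and invasive cells, measured 1159, 1147 and 1141 CPM in the control libraries, 871, 843 and 874 in JQ1, 106, 113 and 111 in I-BET151 and 257, 267 and 254 in ITF2357 libraries. The groups were far apart, and its average change was -1.98 ± 0.02 (SE) on the log2 scale, with -0.41 in JQ1, -3.38 in I-BET151 and -2.15 in ITF2357 (edgeR, same-side adjusted p = 3.23e-15). Snai2, a repressor of E-cadherin, measured 38.9, 43.3 and 43.9 CPM in the control libraries, 28, 25.5 and 25.5 in JQ1, 13.2, 14.9 and 14.6 in I-BET151 and 13.1, 15.1 and 13.8 in ITF2357 libraries. Its compound libraries lay below control in all groups. Zeb2 and Tgfb1 also fell, by 1.04 and 0.53 on average, whereas Cdh2, Tgfb2 and Mmp14 rose by 0.18, 0.65 and 0.25. Vim, the intermediate filament of mesenchymal cells, lay on mixed sides with changes of 0.08, -0.46 and 0.21.

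**Figure D4:**
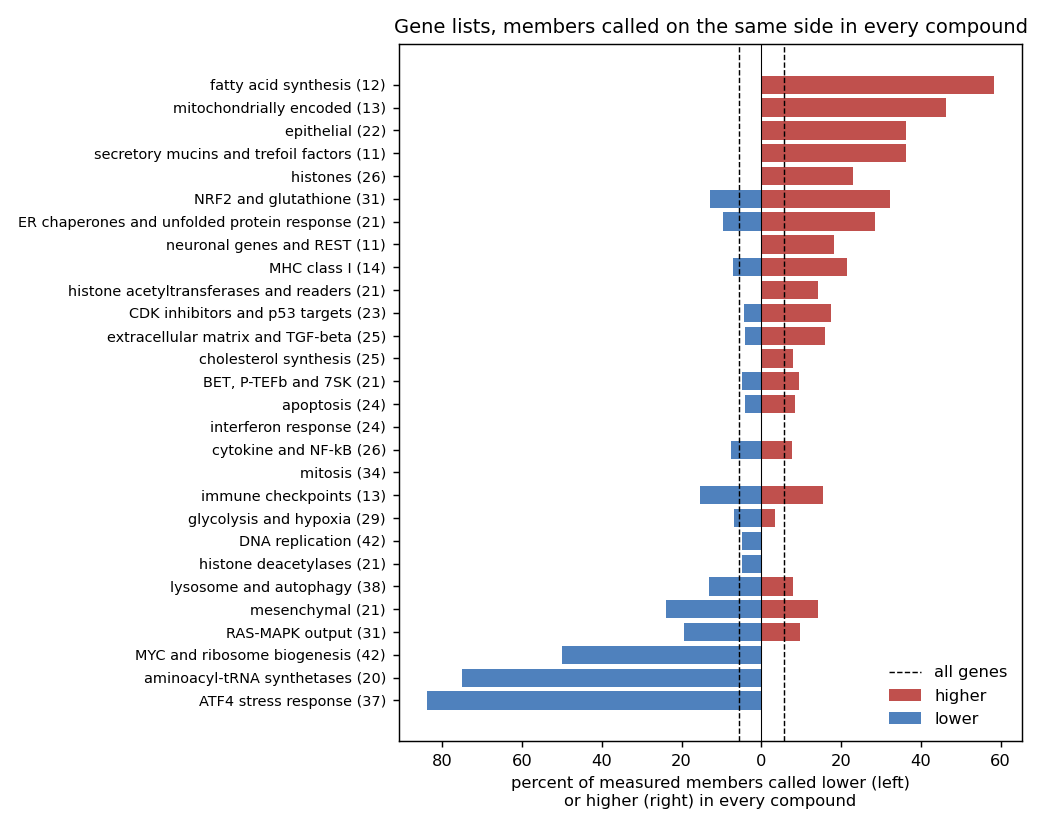
Percent of the measured members of each list (horizontal axis) called lower, to the left, or higher, to the right, in every compound. The ATF4 list and the tRNA synthetases reach furthest to the left, with 31 of 37 and 15 of 20 genes, and dashed lines mark the 5.57% of all genes called in each direction.

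Shared genes of fatty acid synthesis all rose. Of 12 measured genes of fatty acid synthesis 7 rose and 0 fell. Scd2, a desaturase that makes monounsaturated fatty acids (chr19:44293674-44306864), measured 2103, 2101 and 2101 CPM in the control libraries, 2674, 2694 and 2706 in JQ1, 3067, 3122 and 3050.0 in I-BET151 and 2843, 2833 and 2801 in ITF2357 libraries. All compound libraries exceeded control, and its average change was 0.45 ± 0.01 (SE) on the log2 scale, with 0.36 in JQ1, 0.55 in I-BET151 and 0.43 in ITF2357 (edgeR, same-side adjusted p = 2.78e-16). Fads2, a desaturase of polyunsaturated fatty acids, measured 89.1, 91.9 and 92.4 CPM in the control libraries, 121, 129 and 117 in JQ1, 126, 122 and 122 in I-BET151 and 171, 159.9 and 179 in ITF2357 libraries. It was highest with ITF2357, with changes of 0.42, 0.43 and 0.90. Acss2, which makes acetyl-CoA from acetate, had changes of 0.30, 1.42 and 1.06. Its span overlaps Gss on the opposite strand. The Acss2 call did not hold without JQ1 2 (edgeR adjusted p = 0.0641, highest of its alternatives, the lowest being 2.5e-14). Of 25 measured genes of cholesterol synthesis, 22 lay on mixed sides, and Sqle and Insig1 rose by 0.30 and 0.53 on average.

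The NRF2 and glutathione list moved in both directions, 10 of 31 rising and 4 falling. Gclc, a subunit of the enzyme that begins glutathione synthesis, measured 73, 70.9 and 69.7 CPM in the control libraries, 95.5, 85.8 and 88.1 in JQ1, 293, 299 and 317 in I-BET151 and 142, 141 and 125 in ITF2357 libraries. The compound libraries lay above control, I-BET151 highest. Gstm1, a glutathione transferase, measured 64.4, 65 and 67 CPM in the control libraries, 85.3, 94.9 and 91 in JQ1, 171, 156 and 160.4 in I-BET151 and 218, 214 and 229 in ITF2357 libraries. Its changes were 0.46, 1.31 and 1.75, and Ephx1, an epoxide hydrolase, had 0.38, 1.40 and 1.92. Against these, Sqstm1, the autophagy receptor p62, measured 568, 576 and 569.6 CPM in the control libraries, 381, 377 and 385 in JQ1, 406, 411 and 418 in I-BET151 and 323, 307 and 318 in ITF2357 libraries. Sqstm1, Hmox1, Mgst2 and Slc7a11 were the 4 that fell, by 0.64, 0.46, 0.38 and 3.22 on average.

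In the endoplasmic reticulum list 6 of 21 genes rose and 2 fell. Calr, a chaperone of glycoproteins, measured 363, 367 and 359.9 CPM in the control libraries, 406, 408 and 424 in JQ1, 617, 614 and 622 in I-BET151 and 754, 728 and 785 in ITF2357 libraries. Its compound libraries lay above control, and Pdia3, a disulfide isomerase, had changes of 0.24, 0.54 and 0.87. Ern1, the stress sensor IRE1, fell by 0.95 on average, and Atf6, another sensor, by 0.68. With library totals in place of TMM factors, 3 rather than 6 genes of the list rose. The call of Hsp90b1 then did not hold (edgeR adjusted p = 0.28, range over alternatives 1.09e-13 to 0.28).

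Of 26 measured histone genes 6 (23.1%) rose, against 5.57% of all genes, and 0 fell, and without JQ1 13 rose. Hist3h2a, a gene of histone H2A, measured 2.45, 2.39 and 2.59 CPM in the control libraries, 3.44, 4.44 and 4.92 in JQ1, 13.9, 14.1 and 13 in I-BET151 and 5.83, 5.6 and 4.49 in ITF2357 libraries. Its libraries lay above control in every compound, and the average change was 1.44 ± 0.13 (SE) on the log2 scale, with 0.77 in JQ1, 2.46 in I-BET151 and 1.10 in ITF2357 (edgeR, same-side adjusted p = 0.00049). H1f0, a linker histone linked to differentiation, measured 181, 181 and 186 CPM in the control libraries, 205, 208 and 209 in JQ1, 364, 369 and 365 in I-BET151 and 214, 208 and 207 in ITF2357 libraries. The I-BET151 libraries stood apart, with changes of 0.18, 1.00 and 0.20.

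Hexim1, which holds the kinase complex P-TEFb inactive and is a known marker of BET inhibition, measured 17.4, 17.5 and 15.6 CPM in the control libraries, 19.9, 21 and 19 in JQ1, 55.3, 64.3 and 59.2 in I-BET151 and 29.3, 27.5 and 25.7 in ITF2357 libraries. The JQ1 libraries lay only slightly above control, and the changes were 0.25, 1.83 and 0.71 (edgeR same-side adjusted p = 0.0221). The call did not hold without control 3, JQ1 1 or JQ1 2, where the edgeR adjusted p was 0.178, 0.0609 and 0.122, within a range of 2.46e-10 to 0.178 over all alternatives. Brd2 and Hdac1 had no shared call, with changes of 0.08, 1.16 and 0.22 for Brd2 and 0.06, 0.14 and 0.38 for Hdac1. Their averages were called higher, by 0.48 and 0.19 (edgeR adjusted p = 3.73e-19 and 0.00013). Every compound library lay above control for Brd2 but not for Hdac1. Of 21 deacetylase genes 1 (4.76%), Hdac8, fell, against 5.57% of all genes. The Hdac8 call did not hold without control 1, control 2, JQ1 2 or I-BET151 3 (edgeR adjusted p = 0.124, 0.16, 0.0561 and 0.209, range over alternatives 0.00495 to 0.209).

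Genes encoded by the mitochondrial genome rose in part. Of 13 measured, 6 rose and 0 fell, or 11 without ITF2357, and the group mean of 13 of 13 lay above control in every compound. mt-Nd5, a subunit of respiratory complex I, measured 3058, 2952 and 3091 CPM in the control libraries, 3753, 3669 and 3814 in JQ1, 6754, 6505 and 6585 in I-BET151 and 4936, 5086 and 4872 in ITF2357 libraries. The compound libraries lay above control, I-BET151 highest, and the changes were 0.30, 1.12 and 0.71. Mitochondrial genes took 2.22% to 2.32% of the counts in control libraries, 2.7% to 2.76% in JQ1, 3.83% to 3.96% in I-BET151 and 2.94% to 3.13% in ITF2357 libraries.

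Of 26 cytokine genes 2 rose and 2 fell (15.4% shared, against 11.1% of all genes and 14.4% of protein-coding genes), and nothing is read from that share. Of 11 neuronal genes 2 rose and 0 fell (18.2% shared). Il18, a cytokine of the interleukin-1 family, measured 3.03, 2.65 and 2.63 CPM in the control libraries, 4.31, 4.49 and 4.81 in JQ1, 13.4, 15.4 and 18.2 in I-BET151 and 8.78, 10.7 and 8.85 in ITF2357 libraries. It was above control in every compound library, with changes of 0.71, 2.50 and 1.76. Ptgs2, the cyclooxygenase that makes prostaglandins, measured 218, 219 and 209 CPM in the control libraries, 169.8, 171 and 168 in JQ1, 30.3, 29 and 32.3 in I-BET151 and 74.5, 77.1 and 77.5 in ITF2357 libraries. Its compound libraries lay below control. Map2 and Serpini1, genes of neurons, had average changes of 1.44 ± 0.06 and 1.34 ± 0.09. Vegfa, an angiogenic factor in the glycolysis and hypoxia list, measured 518, 510.0 and 510.4 CPM in the control libraries, 419, 419 and 429 in JQ1, 216, 215 and 214 in I-BET151 and 127, 122 and 128 in ITF2357 libraries. It was lowest with ITF2357, with changes of -0.28, -1.26 and -2.03.

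**Figure D5:**
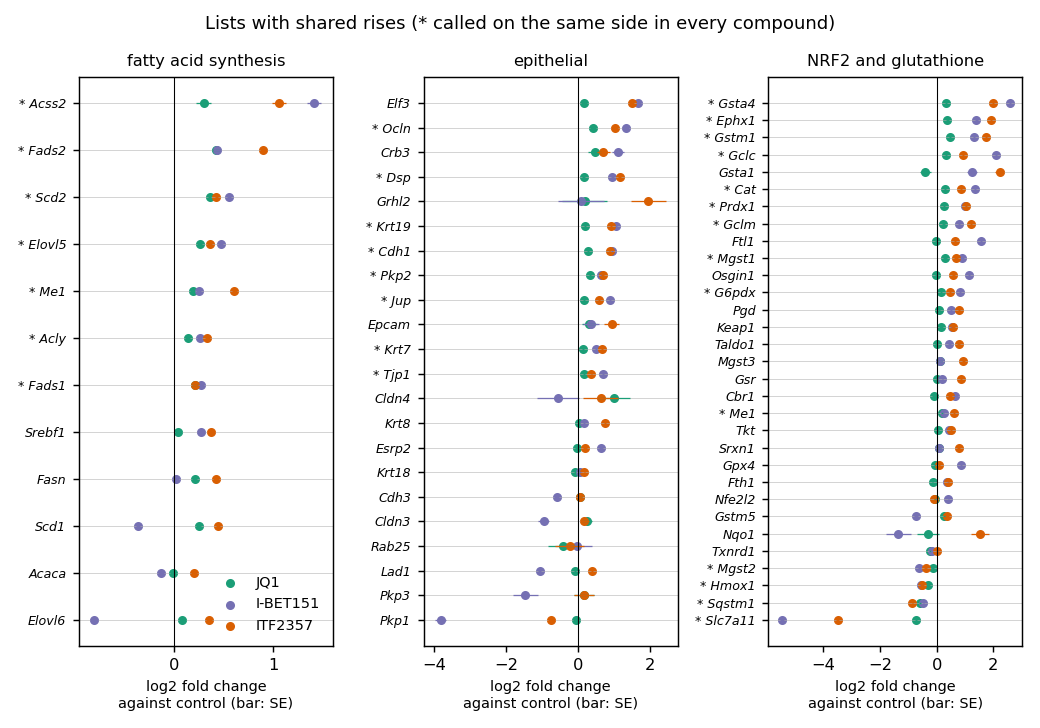
Log2 fold change against control (horizontal axis, bars are SE of the fit) in each compound for genes of lists in which rises were called, 1 row per gene, with shared genes starred. In the fatty acid list 7 of 12 genes and in the epithelial list 8 of 22 carry a star.

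Other lists moved apart between the compounds. All 34 measured mitosis genes lay on mixed sides, with medians of 0.11 in JQ1, -1.26 in I-BET151 and 1.22 in ITF2357. Of 42 DNA replication genes 36 lay on mixed sides, with medians of -0.07, -1.02 and 0.29, and Cdt1 and Pola2 fell. Of 24 measured interferon response genes 0 rose and 0 fell by the same-side test (edgeR, adjusted p under 0.05), with 2 higher and 0 lower at an unadjusted p under 0.05 and 0 called by DESeq2. In the immune checkpoint list 2 of 13 rose, Lgals9 and Cd24a, and 2 fell, Pvr and Nt5e (30.8% shared, against 11.1% of all genes and 14.4% of protein-coding genes). Cd274, the checkpoint ligand PD-L1, lay on mixed sides, with changes of 0.53, 0.07 and -0.35.

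Of 24 apoptosis genes 12.5% were shared, against 11.1% of all genes and 14.4% of protein-coding genes, and nothing is read from that share. Mcl1, which blocks apoptosis, and Bmf, which promotes it, rose by 0.54 and 0.79 on average, and Cflar, an inhibitor of caspase-8, fell by 0.42. Of 25 matrix and TGF-beta genes 20% were shared. Of these 4 rose, among them Loxl2, a collagen crosslinking enzyme, by 0.75, and Inhba, a subunit of activin, fell by 0.82. Of 14 MHC class I genes 28.6% were shared. Among them 3 rose, including B2m, the light chain of MHC class I, and Tapbp, a chaperone of peptide loading. Tap2, a subunit of the peptide transporter, was the 1 that fell. The call of Tap2 did not hold with DESeq2 (adjusted p = 0.0777) or without control 1, control 3, JQ1 2 or JQ1 3 (edgeR adjusted p = 0.0644 to 0.218), within a range of 0.000307 to 0.218 over the alternatives. That of Tapbp did not hold without control 3 or ITF2357 3 (0.0754 and 0.0848, lowest 0.000703), nor that of B2m with library totals (0.132, lowest 7.29e-07). Of 38 lysosome and autophagy genes 3 rose and 5 fell (21.1% shared), and Gaa, a lysosomal glucosidase, fell by 0.32. Of 21 acetyltransferase and reader genes Kat2b, Kat6b and Mllt3 rose, by 0.58, 0.33 and 0.46 (14.3% shared, near the 14.4% of protein-coding genes). The calls of Cflar (without control 1), Kat2b (without JQ1 1) and Kat6b (without control 1 or JQ1 3) did not hold, with edgeR adjusted p = 0.0535, 0.0539, 0.0628 and 0.102, each gene's lowest over the alternatives being 3.06e-13, 2.85e-11 and 4.66e-05. Cd14 was 1 of 3 measured macrophage markers and rose by 0.69 on average, while the fibroblast, endothelial and acinar lists held 0 shared genes by the same-side test (edgeR, adjusted p under 0.05). At an unadjusted p under 0.05 these 3 lists held 1 gene, an endothelial one, and DESeq2 called 0.

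In 163 of the 1931 shared genes no difference among the compounds was called, which does not show that the compounds acted alike. Of those whose mean log2 CPM was 2 or more, Gm12481, Gm6916, Rnu12 and Gm8326 were among the 5 with the largest average change. Rnu12, an RNA of the minor spliceosome, measured 7.69, 6.72 and 6.61 CPM in the control libraries, 4.17, 4.26 and 3.46 in JQ1, 2.91, 4.05 and 3.45 in I-BET151 and 4.34, 4.46 and 3.37 in ITF2357 libraries. It was below control in all compound libraries, with changes of -0.82, -1.01 and -0.79 (edgeR F test of a difference among the compounds, adjusted p = 0.416). Gm12481, Gm6916 and Gm8326 are annotated as processed pseudogenes, whose reads may belong to a parent gene, so these counts are uncertain. The calls of Gm6916 (without JQ1 1, edgeR adjusted p = 0.0873) and Gm8326 (without control 1 or JQ1 1, 0.0608 and 0.111) did not hold in every alternative, with ranges of 0.000318 to 0.0873 and 4.25e-05 to 0.111.

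Of protein-coding genes 14.4% were shared (927 higher, 894 lower), and of lncRNA genes 4.01% (14 higher, 47 lower). The median log2 CPM was 4.72 for protein-coding genes and 0.26 for lncRNA genes among those tested. The genes that rose had a median span of 31.7 kb and those that fell of 22.6 kb, against 22.5 kb for all genes whose mean log2 CPM was 2 or more.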

How the data were processed

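RNA-seq was made from 12 libraries of KPC cells, 3 each of control, JQ1, I-BET151 and ITF2357. The submitters' processing notes name STAR 2.7.2a, Subread 2.0.1 with featureCounts, edgeR 3.38.4, bcl2fastq and build mm10. RNA selection, strand use and annotation release are not given in the sources used here. A single table was deposited, and the tests used the raw counts that the authors put in it for each gene and library. The authors' log2 CPM and log2 RPKM, log2 fold changes, p-values and gene lengths stand in the same table. Of these deposited columns the p-values served as an alternative for the same-side test, and the others were not used for tests.

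Tests ran in edgeR 4.0.16 under R 4.3.3 (TMM factors, filterByExpr removing 0 genes, 1 quasi-likelihood fit of all libraries without covariates). The contrast was the mean of the 3 compound coefficients minus control. The same-side test took the largest of a gene's 3 p-values where all signs were the same and 1 otherwise, with Benjamini-Hochberg adjustment over 17340 genes and calls under 0.05. Standard errors were derived from the fitted change and its F value. Depth was 21 to 31.2 M counts a library, the lowest gene total was 51, and the common biological coefficient of variation was 3.37%. Tested on simulated counts of 17340 genes, the same-side test recovered 50%, 66%, 90% and 96% of genes changed 1.25-fold, 1.5-fold, 2-fold and 4-fold in every compound. It called 0 of 1000 genes changed in 1 compound and 0 of 1000 changed in 2, whereas the average contrast called 618 and 826 of them. The simulation changed 50 genes per fold in every compound, by the same fold in each, and none with few expected counts. The same-side test called 151 genes there and 1931 in the data, where sizes mostly differed among compounds. These rates therefore need not hold for the data.

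Identifiers of 17170 genes (99.0%) matched GENCODE M21, which gave coordinates. Promoter windows came from RefSeq (GRCm38.p6), for 10654 genes. The members and gene lists were chosen with earlier results of these data known. Named genes were the 10 largest shared rises and falls whose mean log2 CPM was 2 or more, without overlap with control, up to 3 shared members of each list plus 1 in the other direction, the 5 largest with no called difference among compounds, and 12 fixed genes; other list members appear beside counts. Some genes that this rule names are not reported here. Alternatives were RLE factors, library totals, no or a stricter filter, DESeq2 1.42.0, a replicate block, separate fits, other weights and leaving out a library or compound. Alternatives for list counts were added after seeing the data.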

Additional observations from a re-analysis of the deposited data

How the results depend on the processing

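The same-side test called 1638 to 2062 genes when 1 replicate was left out, the average contrast 7921 to 9239 and the test among compounds 12324 to 12928. Each highest count was that without ITF2357 3. This library differed most from the others of its group. Its chi-square per degree of freedom, which sets the difference of 2 libraries against counting noise, was 3.93 and 5.2 with ITF2357 1 and 2. All other pairs within a group had 1.62 to 2.69. Without JQ1, which removes 1 of the 3 conditions a gene must meet, the same-side test called 4840 genes (2484 higher, 2356 lower). With the 9 compound libraries as 1 group, whose spread then holds the differences between compounds, the average contrast called 815 genes (392 higher, 423 lower), and 55 of 111 named genes lost their call. Library totals in place of TMM factors moved the median of all genes with I-BET151 from -0.03 to -0.19 and the share of higher calls from 48.0% to 36.5% for the average (3363 higher, 5846 lower) and from 50.03% to 40.8% for the same-side test (795 higher, 1155 lower). B2m, Ccng1, Cx3cl1, Ell2, Hsp90b1 and Pkm lost their same-side call under that scaling. RLE factors, filters, DESeq2 (1822 genes), separate fits (2091) and the authors' deposited p-values (1965) kept the same-side count within 1.5 times of 1931. The average change of Cd274, 0.08, became -0.14 without JQ1 and -0.027 with BET and HDAC inhibitors weighted equally. That of Vim, -0.06, became 0.15 without I-BET151 and 0.011 with equal weights. Both genes lay on mixed sides, so the sign of their average depends on which compounds enter it and with what weight. Leaving out 1 library ended the calls of Ndrg1, Tap2, Lama3, Tapbp, Wipi1, Cflar, Kat2b and Kat6b in at least 1 case. Of 37 ATF4 list genes 30 or 31 fell with any replicate left out. Replicate numbers gave no sign of pairing the libraries, which does not exclude a pairing. After each group's mean was taken off, same-numbered libraries of different groups correlated with r from -0.15 to 0.06, and 0 of 12 correlated best with their own number. A fit with the replicate block called 8801 genes for the average, 1892 for the same-side test and 12767 among compounds. At an unadjusted p under 0.05 the same-side test held 2901 genes. Depth limits the calls of genes with few counts.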
